A study of Balaenoptera physalus with 6 samples.

Results

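The genes described here belong to the dioxin response and to the handling of foreign compounds: AHRR, ARNT2, ABCG2, ALDH3A1 and POR. Their members are the cytosines that the authors' deposited tables list as different between fin whale skin samples and place in a promoter, exon or intron of 1 of these 5 genes. There were 29 such sites of 37640 listed, namely 23 of 32682 in CpG context, 2 of 1742 in CHG and 4 of 3216 in CHH (H is any base but G). AHRR held 15 of the sites, ARNT2 held 7, ALDH3A1 and POR held 3 each, and ABCG2 held 1. The receptor AHR itself is not among these genes, and it had no listed site in any context.

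Skin of the Mediterranean fin whale, Balaenoptera physalus, was read by reduced representation bisulfite sequencing, in which the enzyme MspI cuts at CCGG and bisulfite turns unmethylated cytosine into uracil. The methylation level of a cytosine is the share of its reads that still show cytosine. By the labels, organochlorine (OC) concentration was high in 3 samples, whose titles begin with BPT, and low in 3, whose titles begin with BPL. The sources used here do not give what the prefixes mark or the sex and age of the animals, so prefix and contaminant load cannot be told apart. They also do not state whether each sample is from a different animal.

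The aryl hydrocarbon receptor, encoded by AHR, binds dioxins and related planar organochlorines and then pairs with ARNT or its relative ARNT2 to switch on genes of xenobiotic metabolism. AHRR, a repressor that is itself induced through the receptor, competes for ARNT and closes the loop. ALDH3A1 oxidises aldehydes, POR passes electrons from NADPH to microsomal cytochromes P450, and ABCG2 pumps foreign compounds out of cells. These roles are known from humans and mice. In people, methylation within AHRR is known for its response to tobacco smoke.

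The lists were made by the authors from these same 6 samples, with differences of at least 0.1 as a fraction and a p-value of at most 0.05. The size and the direction of a difference at a listed site are therefore descriptions and were not tested. At 23 of the 23 CpG sites, 2 of 2 CHG sites and 4 of 4 CHH sites the groups did not overlap, as at 99.6%, 99.8% and 99.6% of all listed sites of those contexts. On the stretch of 651 unselected CpG sites available, the authors' deposited table called 2.00%. Outside CpG it called 0.00% there, 0 of 658 CHG sites, which allows a share of up to 0.456%, and 0 of 662 CHH sites, which allows up to 0.453%. None of the 5 genes lies on that stretch, so how many of their sites were tested and not listed is not known here. Sites within a gene, and above all neighbours on the same reads, are not independent.

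All 29 sites lay in introns, and 0 carried a promoter or exon name. Of all listed sites, 34.2% in CpG, 40.6% in CHG and 40.1% in CHH context were in introns only. Those shares also count sites with no gene name, which could not be members. They are therefore not a like background, and the share among sites with a gene name was not counted. The level in high OC skin was higher at 14 and lower at 9 of the 23 CpG sites, a share of 60.9% higher against 50.8% over all listed CpG sites and 49.5% over those in introns only. The differences were small for listed sites, with a median of 14.3 percentage points against 19.2 over all listed CpG sites, and 0 of 23 belonged to the authors' strongly different class, to which 13.4% of all listed CpG sites belonged. Outside CpG, 5 of the 6 sites were higher in high OC skin, against 48.8% of listed CHG and 50.2% of listed CHH sites, and 3 of the 6 were in the strongly different class, against 8.15% and 5.57%. Those 3 lay in AHRR within a single stretch of 293 bases, so they are not independent and do not describe the non-CpG sites of the 5 genes at large.

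Depth was modest. Coverage at the member CpG sites ran from 5 to 44 reads, and all 6 samples reached 10 reads at 9 of 23 sites. In the thinnest sample, 1 read shifted that sample's own level by at least as much as the group means differed at 8 of the 23 sites. The difference exceeded this step at the other 15, and at 80.2% of all listed CpG sites. A mean of 3 samples moves by less than the step, so 1 read does not make up the whole difference. Mean coverage at the 23 sites was 15.8 ± 1.42 reads (SD, n = 3) with high OC, against 15.3 ± 0.115 reads (SD, n = 3) with low OC (exact two-sided permutation test, p = 0.7, where 3 samples against 3 cannot go below 0.1). That p-value compares the difference with those under relabelling of these 6 samples, and reaches no further than them. Single-sample intervals below are exact 95% binomial intervals, and they and the limits for counts of 0 cover counting error only.

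**Figure D1:**
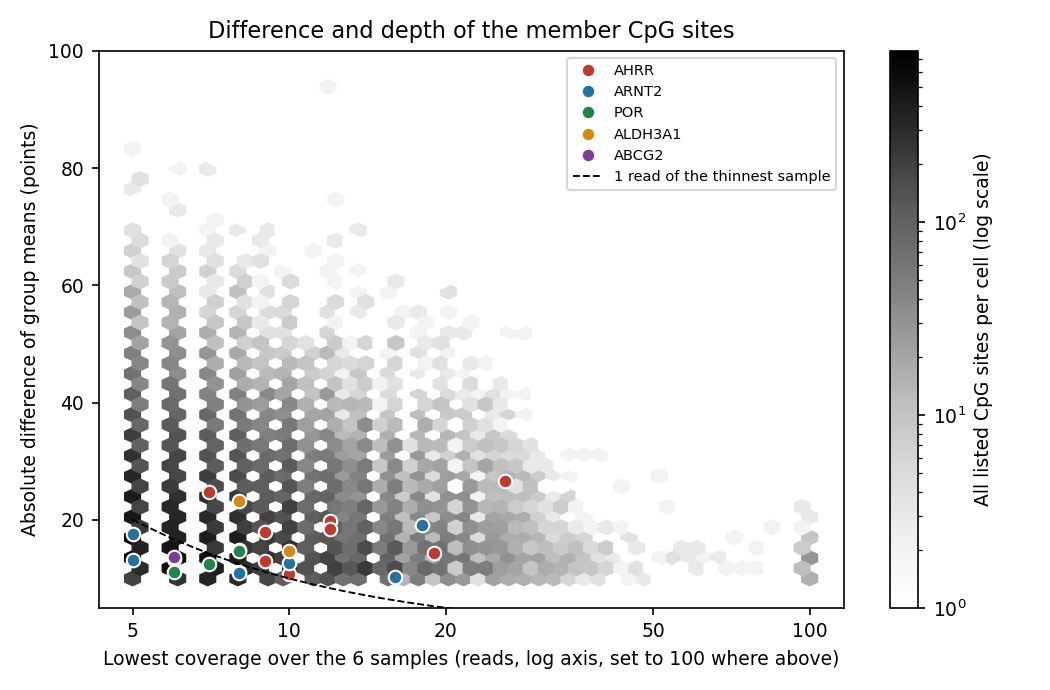
Absolute difference of group means (points) against the lowest coverage over the 6 samples (reads, log axis) for the 23 member CpG sites, coloured by gene, over the density of all 32682 listed CpG sites. The dashed line is the step that 1 read makes in the thinnest sample's own level, not in a group mean, and 15 of the 23 sites lie above it.

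AHRR, the repressor, had the most listed sites of the 5 genes. Its 10 CpG sites spread over 41115 bases, from start 12778314 to 12819429 on scaffold NW_006731234_1, and 8 were higher and 2 lower in high OC skin. Of the 6197 genes with a listed CpG site, 4.84% had at least as many. Gene length in this assembly was not used, so this is a count and not a density. Averaged over the 8 higher sites, the high OC samples stood at 56.0%, 56.0% and 53.7% and the low OC samples at 38.3%, 38.2% and 39.6%. Averaged over the 2 lower sites, they stood at 30.8%, 33.3% and 42.9% against 60.5%, 55.8% and 49.3%.

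The AHRR CpG site with the most reads in its thinnest sample also had the largest difference among the 23 member CpG sites. At 12819429 on the plus strand, high OC replicates 1 to 3 read 84.6%, 86.7% and 81.8%, and low OC replicates read 58.8%, 43.6% and 70.6%, with 26 to 44 reads per sample. The low OC samples were far apart, and low OC replicate 3 came closest to the high OC samples. Group levels were 84.4% ± 2.43 (SD, n = 3) and 57.7% ± 13.5 (SD, n = 3), a difference of 26.7 points that 26.1% of all listed CpG sites reached or passed. The interval of low OC replicate 2, 27.8% to 60.4%, lay below those of all high OC samples, the lowest of which began at 65.1%. The other low OC intervals overlapped them. This was the only member CpG site, of 23, at which any interval of a high OC sample was apart from that of a low OC sample. The same share over all listed CpG sites was not counted, so this count has no background. Intervals also narrow with more reads, and the median lowest coverage of the member CpG sites was 8 reads against 26 here. Unmethylated reads at this site were 4, 4 and 8 in high OC and 14, 22 and 10 in low OC samples, all even. Whether reads were counted doubly here was not tested. If they were, the intervals given are too narrow and their separation may not hold.

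A CHG and both other CHH cytosines of this end of AHRR lay within 293 bases after that CpG, and all 3 were higher in high OC skin. The CHH site at 12819462, 33 bases on and on the same strand, read 61.5%, 86.7% and 54.5% in high OC and 23.5%, 15.4% and 45.7% in low OC samples. Its coverage equalled that of the CpG site in 5 of 6 samples. Whether both came from the same reads was not tested. At both sites high OC replicate 2 was the highest and low OC replicate 2 the lowest sample. The CHG site at 12819476 on the minus strand read 29.4%, 61.5% and 69.2% against 18.8%, 11.1% and 23.8%, with high OC replicate 1 close to the low OC samples. The CHH site at 12819722 read 91.7%, 100% and 62.5% against 40%, 40% and 33.3%, at 5 to 12 reads. Its difference of 46.9 points ranked 53 of the 3216 listed CHH sites.

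Levels outside CpG were far lower on the unselected stretch. There, CHG sites averaged 1.49% and CHH sites 0.920%. A mean level over 50% was found at 3 of 658 CHG sites and at 0 of 662 CHH sites, and the latter allows a share of up to 0.453%. Among listed sites, 32.4% in CHG and 15.1% in CHH context were over that level. The 4 listed sites here were grouped after the values were seen, by gaps of at most 500 bases, and 1 of them is the CpG site at 12819429. Together they averaged 72.5% ± 9.70 (SD, n = 3) with high OC, against 35.4% ± 7.92 (SD, n = 3) with low OC. That mean mixes contexts. Outside CpG, group levels were 53.4% against 17.9% at the CHG site. They were 67.6% against 28.2% and 84.7% against 37.8% at the CHH sites 12819462 and 12819722. The deposited scaffold names differ from the chromosome names of the reference gene table, and the assembly is not named. Whether these cytosines have the same sequence context in the animals sampled was not tested.

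**Figure D2:**
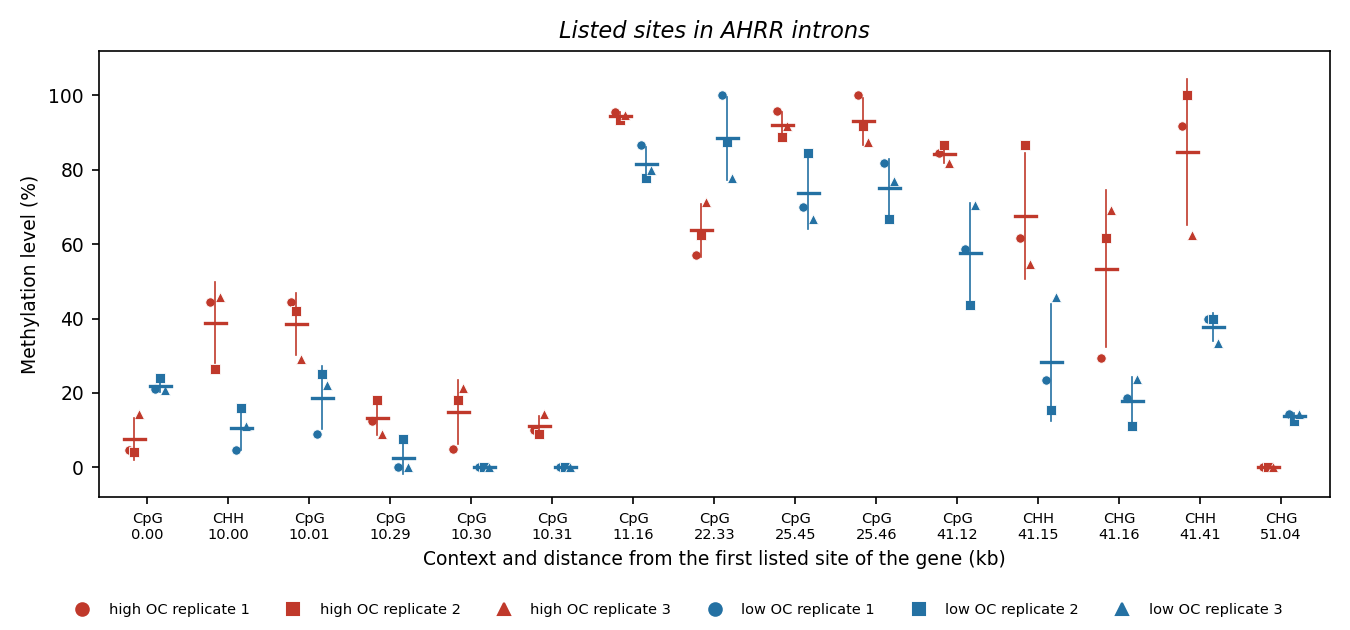
Methylation level (%) of each sample at the 15 listed AHRR sites in order along the scaffold, labelled by context and distance from the first site (kb). Bars are group means and lines SD (n = 3). The 4 sites before the last one are all higher in high OC samples, and the first and last sites are lower.

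A second such group of AHRR sites, 5 within 309 bases from 12788313, was low to intermediate in level and higher in high OC skin throughout. It averaged 23.3% ± 0.595 (SD, n = 3) against 6.38% ± 3.51 (SD, n = 3). Its CpG site at 12788324 on the minus strand read 44.4%, 42.1% and 29.2% against 9.09%, 25.0% and 22.2%, so that high OC replicate 3 and low OC replicate 2 were only 4.17 points apart. At the CHH site 11 bases away, 12788313, the levels were 44.4%, 26.3% and 45.8% against 4.55%, 16.0% and 11.1%. Coverage there was exactly 2 times that of the CpG site in 5 of 6 samples and the methylated count was even in 6 of 6. Whether reads were counted doubly was not tested. Intervals were apart in 4 of 9 pairs of a high and a low OC sample as deposited and in 1 of 9 with reads halved. At 12788615 and 12788622, which had equal coverage in 6 of 6 samples, all low OC samples were at 0%, with 0 of 37 reads methylated, which allows up to 8.11%. The high OC samples had 6 of 45 and 5 of 45 reads methylated. Every low OC sample was at 0% at 2 of the 23 member CpG sites (8.70%), both given here, against 4.04% of all listed CpG sites. The remaining site of the group, 12788602, had 5 of 38 reads methylated against 1 of 34.

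Between these groups lay highly methylated CpG sites. A pair 13 bases apart on opposite strands was higher in high OC skin: 12803764 read 95.8%, 88.9% and 91.7% against 70.0%, 84.6% and 66.7%, and 12803777 averaged 93.1% ± 6.36 (SD, n = 3) against 75.1% ± 7.73 (SD, n = 3). The site at 12789470 averaged 94.5% ± 1.08 (SD, n = 3) against 81.5% ± 4.63 (SD, n = 3). In the other direction, 12800642 read 57.1%, 62.5% and 71.4% in high OC and 100%, 87.5% and 77.8% in low OC samples, at 7 to 9 reads. The first listed site, 12778314, was also lower, at 4.55%, 4.17% and 14.3% against 21.1%, 24.1% and 20.8%, at 19 to 35 reads. Beyond all CpG sites, the CHG site at 12829352 was at 0% in each high OC sample, with 0 of 28 reads methylated, which allows up to 10.7%. The low OC samples read 14.3%, 12.5% and 14.3%, with 3 of 22 reads methylated, 1 in each.

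ARNT2, which pairs with the receptor and with other proteins of the bHLH-PAS family, had 7 listed CpG sites over 142466 bases of scaffold NW_006732900_1 and none outside CpG. Of these, 4 were higher and 3 lower in high OC skin, and the level went from 89.1% and 100% at the first site to 6.96% and 19.6% at the last, in high and low OC samples. The largest difference was at 1119282 on the plus strand, the site with the most reads in its thinnest sample, which read 55.6%, 47.6% and 61.5% against 28.6%, 38.7% and 40% at 18 to 31 reads. Group levels were 54.9% ± 6.98 (SD, n = 3) and 35.8% ± 6.26 (SD, n = 3), and the 2 nearest samples were 7.62 points apart. Next to it, 1112328 read 63.2%, 71.4% and 60.0% against 54.5%, 50% and 50%, at 6 to 19 reads, and averaged 64.9% ± 5.90 (SD, n = 3) against 51.5% ± 2.62 (SD, n = 3).

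Further along ARNT2, levels were low. At 1132863 the high OC samples read 27.3%, 14.3% and 22.2% and the low OC samples 0%, 0% and 11.1%, which rests on 6 of 27 against 1 of 19 methylated reads. At 1132474, 389 bases before it, the high OC samples lay close together at 25.0%, 26.7% and 25.0%, and the low OC samples read 12.5%, 20% and 13.3%. The high OC levels rest on 4 of 16, 8 of 30 and 6 of 24 methylated reads. All counts at this site were even, and whether reads were counted doubly was not tested. Even coverage in all 6 samples was found at 2 of 23 member CpG sites and at 11.4% of all listed CpG sites. The last site, 1136427, was lower in high OC skin, at 5.88%, 0% and 15% against 18.8%, 18.8% and 21.4%.

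At the start of the ARNT2 stretch, both sites were fully methylated in every low OC sample. At 993961 there were 4 unmethylated of 38 reads in high OC and 0 of 29 in low OC samples, and 0 of 29 allows up to 10.3%. At 1054760 there were 5 of 36 and 0 of 20, which allows up to 15%. High OC levels were 93.8%, 84.6% and 88.9% at the former and 78.6%, 90.9% and 90.9% at the latter. Each of these differences comes from 1 to 3 unmethylated reads per high OC sample.

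Sites of that kind recurred in POR and ABCG2. In all, 4 of the 23 CpG sites (17.4%) had every low OC sample at 100%, against 8.49% of all listed CpG sites. ABCG2, the efflux pump, had a single listed site, at 10654425 on scaffold NW_006727686_1. It read 92.3%, 83.3% and 83.3% in high OC and 100% in each low OC sample, with 1 unmethylated read in each high OC sample and 0 of 24 reads in low OC, which allows up to 12.5%. POR, the P450 reductase, had such a site at 12172160 on scaffold NW_006728570_1, at 84.6%, 85.7% and 92.3% against 100%, with 2 unmethylated reads in each high OC sample and 0 of 40 in low OC, which allows up to 7.50%.

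The other 2 POR sites were higher with high OC. At 12138620 the levels were 16.7%, 25.0% and 16.7% against 9.09%, 7.69% and 8.33%, from 4 of 20 against 3 of 36 methylated reads. At 12149514 they were 84.6%, 100% and 100% against 80.0%, 78.6% and 81.8%, and high OC replicate 1 was 2.80 points from the nearest low OC sample.

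ALDH3A1, the aldehyde dehydrogenase, had 2 CpG sites on scaffold NW_006726021_1, both lower in high OC skin, and a CHH site that was higher. The site at 1861994 on the minus strand read 78.9%, 66.7% and 66.7% in high OC and 100%, 92.3% and 89.5% in low OC samples, averaging 70.8% ± 7.09 (SD, n = 3) against 93.9% ± 5.45 (SD, n = 3). The CpG site at 1859233 read 81.8%, 86.7% and 80.0% against 92.3%, 100% and 100%. At the CHH site at 1859220, 13 bases before it on the same strand, the levels were 18.2%, 13.3% and 20% against 0% in each low OC sample, where 0 of 58 reads allow up to 5.17%. Of all listed CHH sites, 39.7% had every low OC sample at 0%. Coverage of these 2 sites was equal in 6 of 6 samples. Each high OC sample had 2 unmethylated reads at the CpG site and 2 methylated reads at the CHH site. Low OC replicate 1 had 2 unmethylated reads at the CpG site and 0 methylated reads at the CHH site. Whether the same reads carried both could not be read from the tables.

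**Figure D3:**
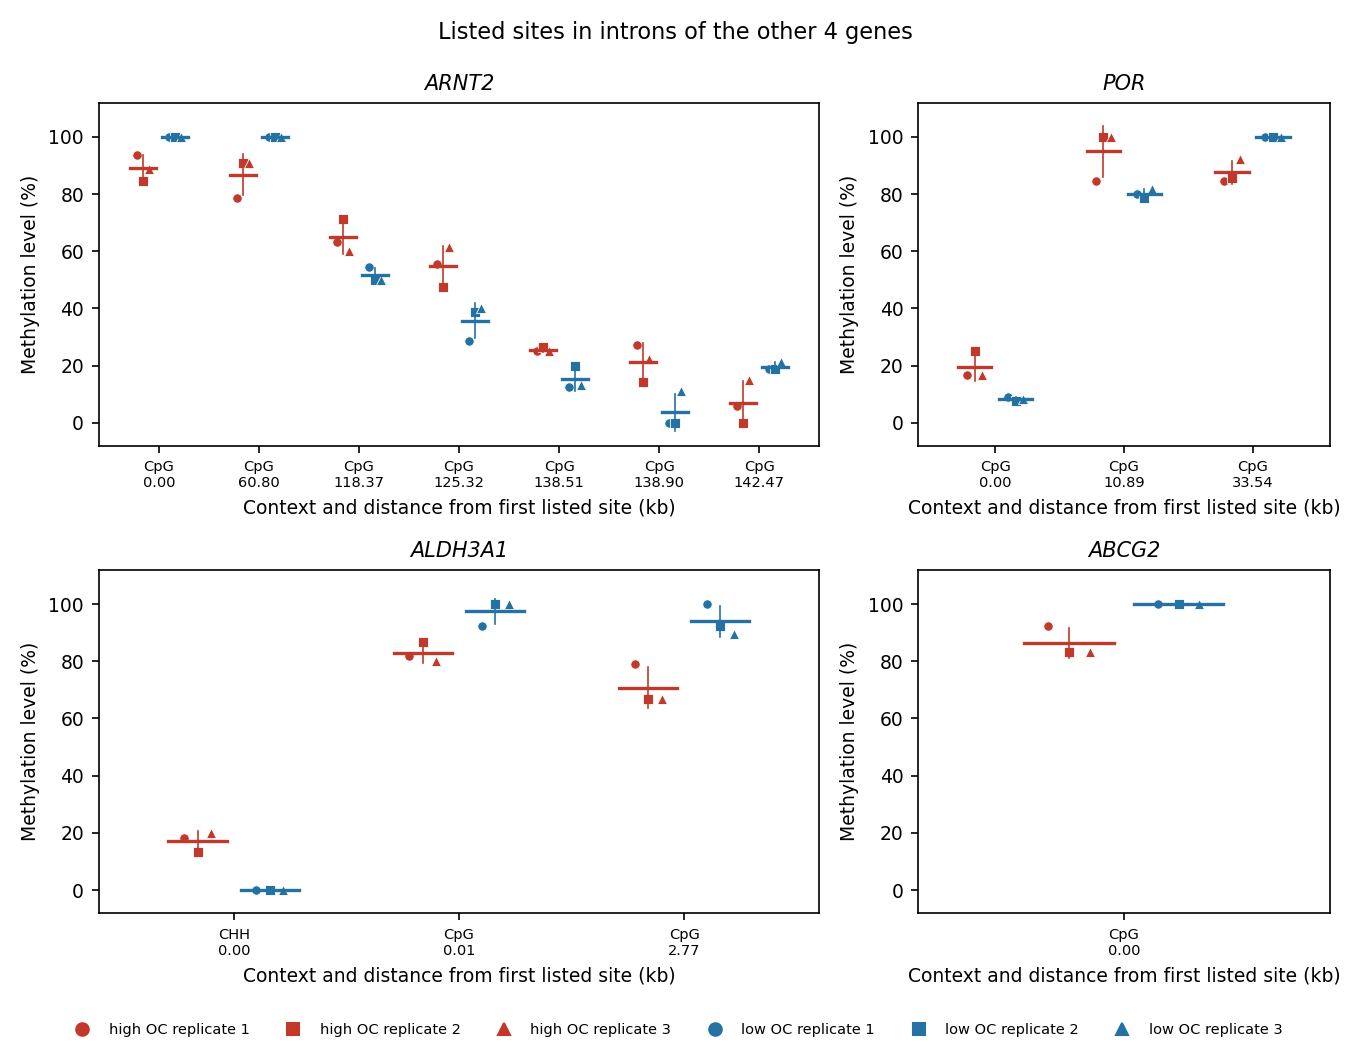
Methylation level (%) of each sample at the listed sites of ARNT2, POR, ALDH3A1 and ABCG2, in order along each scaffold and labelled by context and distance from the gene's first listed site (kb), with group means and SD (n = 3). At 4 sites, 2 in ARNT2 and 1 each in POR and ABCG2, every low OC sample is at 100%.

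The sample nearest to the other group varied from site to site. High OC replicate 3 was the high OC sample nearest to the low OC group at 9 of 23 CpG sites, replicate 2 at 6 and replicate 1 at 5, with ties at 3. On the low OC side, replicate 3 was nearest at 7, replicate 1 at 5 and replicate 2 at 4, with ties at 7.

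Genes most like AHRR and ARNT2 were sought by the mean level over listed CpG sites in the 6 samples, among the 1031 other genes with at least 5 such sites. The nearest to AHRR were GNG7, a G protein gamma subunit, at a root mean square distance of 1.52 points, WDR25 at 1.94 points and ABR at 2.01 points. Those nearest to ARNT2 were RTN4RL1 at 1.93 points, BFSP1 at 1.93 points and LOC103001426 at 2.40 points. GNG7 had 10 higher and 5 lower sites, against 8 and 2 in AHRR.

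In a list of 27 genes of the receptor pathway and phase 1 oxidation, 6 had a listed CpG site, with 5 leaning higher and 1 lower. How many genes of the whole genome had a tested site is not known here, so no background share stands beside such counts. Of all 6197 genes with listed CpG sites, 49.6% leaned higher and 40.5% lower, by the larger number of sites. The listed genes were mainly relatives and partners: SIM2, a bHLH-PAS protein of brain development that can pair with ARNT, had 12 higher and 1 lower sites and averaged 67.0% ± 5.59 (SD, n = 3) against 40.2% ± 0.734 (SD, n = 3). SIM1 had 5 higher and 2 lower sites, 4 of them in its promoter, and averaged 25.0% ± 1.22 (SD, n = 3) against 16.2% ± 1.01 (SD, n = 3). NCOA2, a coactivator, had 3 higher sites, EPAS1, an oxygen-sensing partner of ARNT, had 2 higher and 1 lower, RELB had 1 higher, and HSP90AA1, a chaperone of the unbound receptor, had 1 lower site in its promoter. ARNT, TIPARP, CYP1A1 and CYP1B1 had no listed site in any context. A gene with none may have had few reads or no difference, which these lists cannot separate.

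Among 27 conjugation, aldehyde and antioxidant enzymes, 11 had a listed CpG site, with 7 leaning higher and 4 lower. ALDH1A3, which makes retinoic acid, had 10 higher sites, and all were in its promoter. ALDH1L1 had 4 higher and 3 lower sites, EPHX2, an epoxide hydrolase, had 2 and 1, and KEAP1, the sensor of oxidative stress, had 2 higher sites that averaged 99.0% ± 1.80 (SD, n = 3) against 83.4% ± 3.61 (SD, n = 3). SULT2B1, a sulfotransferase of skin sterols, had 3 lower promoter sites at 0% with high OC, against 12.7% ± 2.75 (SD, n = 3). HMOX1 and GSTA4 had 1 higher promoter site each, and ALDH3A2, the neighbour and relative of ALDH3A1, had 1 higher site. ALDH2 and ALDH3B1 had 1 lower site each. NQO1, a classical target of the receptor, had no listed site in any context.

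Among 20 efflux transporters and xenobiotic nuclear receptors, 10 had a listed CpG site, of which 6 leaned higher, 3 lower and 1 neither way. RXRA, the shared partner of these nuclear receptors, had 7 higher and 4 lower sites at 45.4% ± 3.55 (SD, n = 3) against 36.0% ± 3.45 (SD, n = 3). ABCG1, a relative of ABCG2 that exports sterols, had 2 higher and 3 lower sites, while ABCG5 had 1 higher site. PPARA, a receptor for fatty acids, had 2 higher sites, both in its promoter, with a mean of 14.8% ± 1.02 (SD, n = 3) and of 0.980% ± 1.70 (SD, n = 3) with low OC. ABCA1 and SLCO2B1 had 2 higher sites each, RXRG had 1 of each, ABCC4 had 1 higher, and ABCC5 and PPARD had 1 lower each. ABCB1 had no listed site in any context. Of markers of skin cell types, 2 of 8 keratinocyte, 1 of 5 melanocyte, 0 of 4 fibroblast, 1 of 4 blood and immune and 0 of 4 adipocyte genes had a listed CpG site. The keratinocyte genes were PKP3, of desmosomes, with 1 higher and 22 lower sites at 37.4% ± 2.10 (SD, n = 3) with high OC against 65.2% ± 5.72 (SD, n = 3), and EVPL, of the cornified envelope, with 10 higher and 1 lower at 68.4% ± 2.20 (SD, n = 3) against 43.1% ± 2.22 (SD, n = 3). SOX10, the melanocyte gene, had 1 higher site at 95.8% ± 7.22 (SD, n = 3) against 61.3% ± 9.91 (SD, n = 3). SPI1, the immune gene, had 1 lower site. These values do not measure cell composition, whose part in the differences was not tested.

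**Figure D4:**
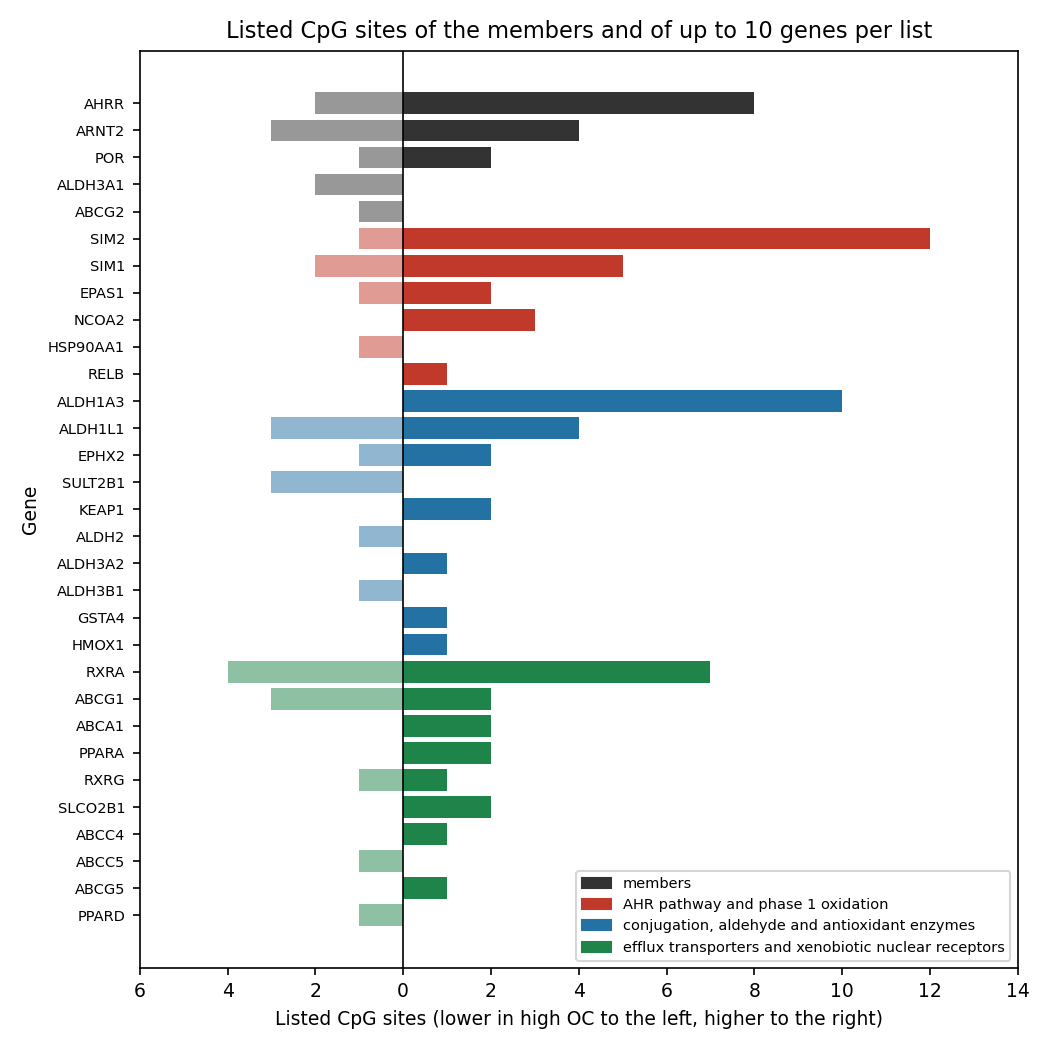
Number of listed CpG sites lower (left) and higher (right) in high OC skin for the 5 genes and for up to 10 genes of each related list, those with the most listed sites first. AHRR (8 higher, 2 lower), SIM2 (12 and 1) and ALDH1A3 (10 and 0) have the longest bars to the right.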

How the data were processed

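Genomic DNA of 6 skin samples was cut with MspI, bisulfite-treated and sequenced, per the labels' protocols. The submitters' processing notes name Bismark. Not given in the sources used here are its version, the assembly, the annotation, how far a promoter reaches and any filters on reads. The authors deposited, per the file headers, a methylation level as a fraction rounded to 2 decimals and a coverage as a count of reads for each cytosine and sample, with a difference of group means, a p-value and a class. The p-values of the deposited tables ran from 2.117e-05 to 0.04949 at the 29 sites. The lowest belonged to the AHRR CHG site at 12829352, which had 0 of 28 methylated reads in high OC and 3 of 22 in low OC samples. Starts are printed as deposited, where start and end differ by 1.

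Methylated reads were the level times the coverage, rounded, and levels were recomputed from them, which departed from the deposited fractions by at most 0.005. Group values are means ± SD of 3 samples. Sites were chosen by gene name in the promoter, exon or intron columns. All 5 gene names, and 82.0% of listed gene names, matched a symbol in the gene table of assembly mBalPhy2.hap1.1, from which only names were taken. The members and gene lists were chosen with earlier results of these data known. Sites named with each sample's value were every promoter site, the 3 largest differences per direction in each gene, the site with the most reads in its thinnest sample and up to 4 CHG and CHH sites per gene, and most others are given by group level or reads. List genes were named up to 10 per list, those with the most sites first, and 3 list genes are not reported here. The reads at the AHRR CHH site at 12788313 were halved after the data were seen. Alternatives were coverage minimums of 10 and 20 reads, differences of at least 20 and 33 points, 1 site per CpG or per 100 bases, rows that name another gene left out, weighted means, medians, a coverage maximum of 200 reads and each sample left out. Tools were scipy 1.17.1, pandas 2.3.3 and numpy 2.4.6 under Python 3.11.15, and the gene distance was tested on simulated data. The shorter deposited lists were not used.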

Additional observations from a re-analysis of the deposited data

How the results depend on the processing

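The counts of 14 higher and 9 lower CpG sites, and of 5 higher and 1 lower non-CpG sites, shrank under stricter selection. A minimum of 10 reads left 6 higher and 3 lower CpG sites and 0 lower non-CpG sites. With at least 20 reads, 1 higher and 0 lower CpG sites and 2 higher and 0 lower non-CpG sites were left. A difference of at least 20 points left 1 higher and 2 lower CpG sites and 0 lower non-CpG sites, and one of at least 33 points left 0 and 0 CpG sites and 3 higher and 0 lower non-CpG sites. Each of these rests on fewer sites by construction. With a sample left out, 11 to 14 higher and 7 to 9 lower CpG sites still differed by at least 10 points. The difference over the AHRR higher sites, 16.6 points, became 23.9 with a median over sites and 18.9 with at least 10 reads, and that over the ALDH3A1 CpG sites, -18.9 points, became -14.6 with at least 10 reads, where 1 of the 2 sites is left. Over the ARNT2 lower sites, -12.3 points became -3.83 with sites weighted by coverage and -16.0 with a median. These sites differ in both level and reads. The low site 1136427 had 47 reads in high OC and 46 in low OC samples, the highly methylated 993961 had 38 and 29, and 1054760 had 36 and 20. How far this uneven weight accounts for the change was not tested. The coverage difference of 0.478 reads turned to -0.13 without high OC replicate 3 and ran from -0.13 to 1.26 with a sample left out. Of 135 alternatives over 13 results, 115 left the value within its spread or the count within 1.5 times. No member row named another gene and no CpG was listed on both strands, so those settings changed nothing. No paired analysis was possible because the labels give no replicate numbers that the groups share.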

Other observations

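Around AHRR, other listed CpG sites within 100 kb on either side of its listed stretch were counted after the members' values were seen. There were 33, of which 18 were higher and 15 lower in high OC skin. SLC9A3, a sodium and proton exchanger, had 4 higher and 8 lower, EXOC3, an exocyst subunit, had 1 higher and 2 lower, PDCD6 had 2 lower and SDHA, a subunit of mitochondrial complex II, had 1 lower. The 15 sites with no gene name were 13 higher and 2 lower, and averaged 81.1% in high OC against 63.2% in low OC skin. Many of the higher ones were close neighbours, from 12741232 to 12741315, 12743732 to 12743779 and 12847026 to 12847088, and so are not independent. Over all listed CpG sites, 50.8% were higher. None of these other sites lay between the first and the last listed AHRR site, which follows from leaving sites named AHRR out of this count. Around ALDH3A1 there were 10, with ULK2 at 3 higher sites, SLC47A2, an exporter of organic cations, at 3 higher and 1 lower, ALDH3A2 at 1 higher, and 2 lower sites with no gene name. Within the same distance of the listed sites, POR had 1 other listed CpG site, and ARNT2 and ABCG2 had none.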
